A study of Mus musculus with 12 samples.

Results

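The interleukin-6 (IL-6) family of cytokines and their receptors was described across primary cultures of mouse intestinal muscle and the muscle tissue itself. The 10 genes were chosen by symbol: the ligand genes Il6, Il11, Lif, Osm and Clcf1 and the receptor genes Il6st, Il6ra, Il11ra1, Lifr and Osmr. They are 10 of the 52550 genes of the deposited table of read counts, and all 10 passed the filter on low counts. RNA-seq had been run on 12 libraries in 4 groups of 3, all wild type. In P plate, cells from intestinal muscle layers were grown on a well plate in P medium, which the labels call a proliferation medium (DMEM with 10% fetal bovine serum and ABAM). In M plate the cells were on a well plate in M medium, called a differentiation medium and made without serum from Advanced DMEM/Ham's F-12. It held N2, B27 without vitamin A, N-acetylcysteine, HEPES, GlutaMAX, ABAM, 100 ng/mL of the BMP antagonist Noggin, 1 µg/mL of the Wnt agonist R-spondin1 and 10 µM of the kinase inhibitor Y27632. In M scaffold the cells had the same medium but lay on an electrospun gelatin scaffold. Cultures were kept for 28 days. Strips were intestinal muscle, labelled as native tissue and positive control. The strips, too, are labelled day 28, with a source name that speaks of cultured cells. The cultures are mixed primary cells, and neither strain nor age nor sex of the mice was stated. The series text calls the replicates biologically independent, but the labels do not say whether equal replicate numbers share an animal.

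IL-6 family cytokines signal through receptor complexes that contain gp130, the product of Il6st. IL-6 and IL-11 first bind their own receptors, the products of Il6ra and Il11ra1, whereas LIF pairs gp130 with the LIF receptor and oncostatin M, in the mouse, mainly with the oncostatin M receptor. The complexes activate JAK kinases and above all the transcription factor STAT3, which induces acute phase genes and its own inhibitor Socs3. In the gut the family is known for roles in inflammation, wound repair and fibrosis, and IL-6 and oncostatin M are produced by macrophages among other cells.

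Libraries held 21396485 to 116643512 counts in genes. P plate replicate 1 and M scaffold replicate 3 were taken as standing apart from their groups. In log2 CPM (TMM-scaled counts relative to library size) the first correlated at 0.949 and 0.955 with replicates 2 and 3, against 0.982 between those. M scaffold replicate 3, with 116643512 counts, had 0.973 and 0.974 against 0.983. Strips replicate 2 had a like gap, 0.980 and 0.984 against 0.991. P plate replicate 1 had 22930 CPM summed over a list of 10 macrophage markers, among them Adgre1, Cd68 and C1qa, against 4423 and 2423 CPM in replicates 2 and 3. The same sum was 4394 to 5142 CPM in M plate, 1950 to 4360 CPM in M scaffold and 167 to 241 CPM in strips, and none of the 10 markers was at 0 in any group. In strips the 8 smooth muscle markers, among them Acta2 and Myh11, summed to 33817 to 35240 CPM, against 2865 to 10795 CPM in the cultures. Fibroblast markers summed to 5972 to 7252 CPM in strips and 11818 to 33168 CPM in the cultures. The 5 mesothelium markers summed to 296 CPM in P plate replicate 1, against 2954 and 2255 CPM in P plate replicates 2 and 3. In bulk RNA fewer cells of a type and less RNA per cell cannot be told apart.

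The sequences before the starts of 3 ligand genes are shown because these ligands were among those higher in P plate than in strips, and because each holds a match to the AP-1 motif. The sequences are from RefSeq (GRCm38.p6), which matched 8 of the 10 genes, with 11 windows of the 250 bases before a start. Capitals mark motif matches, and positions are counted back from -1, the base before the start.
Il6, chr5:30012864-30013113, plus strand: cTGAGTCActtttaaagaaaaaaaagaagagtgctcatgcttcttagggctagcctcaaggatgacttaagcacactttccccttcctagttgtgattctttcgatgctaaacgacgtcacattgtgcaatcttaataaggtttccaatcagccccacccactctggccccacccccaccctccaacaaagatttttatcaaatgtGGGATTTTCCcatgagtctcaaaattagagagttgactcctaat
Il11, chr7:4778142-4778391, minus strand: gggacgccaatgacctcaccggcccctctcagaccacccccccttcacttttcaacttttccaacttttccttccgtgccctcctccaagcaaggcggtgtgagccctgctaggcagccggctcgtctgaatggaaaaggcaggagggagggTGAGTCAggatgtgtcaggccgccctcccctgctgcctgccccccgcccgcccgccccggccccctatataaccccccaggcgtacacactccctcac
Lif, chr11:4257318-4257567, plus strand: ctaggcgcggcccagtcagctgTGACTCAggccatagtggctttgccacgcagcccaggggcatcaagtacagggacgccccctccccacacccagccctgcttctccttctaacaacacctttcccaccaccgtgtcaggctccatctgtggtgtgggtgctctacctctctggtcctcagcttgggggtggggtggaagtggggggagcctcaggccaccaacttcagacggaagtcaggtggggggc
The AP-1 motif TGAGTCA, searched on both strands, begins at position -249 in Il6, -98 in Il11 and -228 in Lif, where it reads TGACTCA. The Il6 window also has a match to an NF-kappaB motif that allows any base in the fifth place, here GGGATTTTCC, from position -44. A further Il11 window, chr7:4782858-4783107, holds neither. Among 32851 such windows of all genes, 4.46% hold the AP-1 letters and 0.356% the NF-kappaB letters. The STAT motif TTCNNNGAA, in 7.02% of all windows, and the CRE motif TGACGTCA, in 1.55%, were found in none of the 11 windows of these genes. The motifs do not overlap, and a match describes letters and not a bound site.

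Genes were called at an adjusted p under 0.05 in edgeR's quasi-likelihood F test over 17700 genes. Against strips, all 5 ligand genes rose in P plate, and all 5 were also called without P plate replicate 1, while Lif, Il6 and Osm rose in M plate and M scaffold. Among receptor genes, Osmr rose in all 3 cultures by 15.4-fold to 38.6-fold, while the called differences of the other 4 were at most 2.74-fold. In P plate against strips 6 of the 10 genes were higher and 1 was lower, beside 30.5% higher and 32.7% lower among all genes. For M plate against strips 7 were higher (26.5% of all genes) and in M scaffold against strips 6 (24.5%), and no gene of the family was called lower. The median log2 fold changes of the 10 genes were 2.76, 0.62 and 1.02, beside -0.03, -0.01 and -0.02 over all genes tested. They join unlike parts: the ligand genes had medians of 5.33, 3.50 and 4.20 and the receptor genes -0.08, 0.56 and 0.57. The 3 comparisons share the strips libraries and are not independent of each other. Osm, with 6 counts in all strips, passed the filter through the cultures. Its calls as higher than strips, counted here, were in part set by that.

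**Figure D1:**
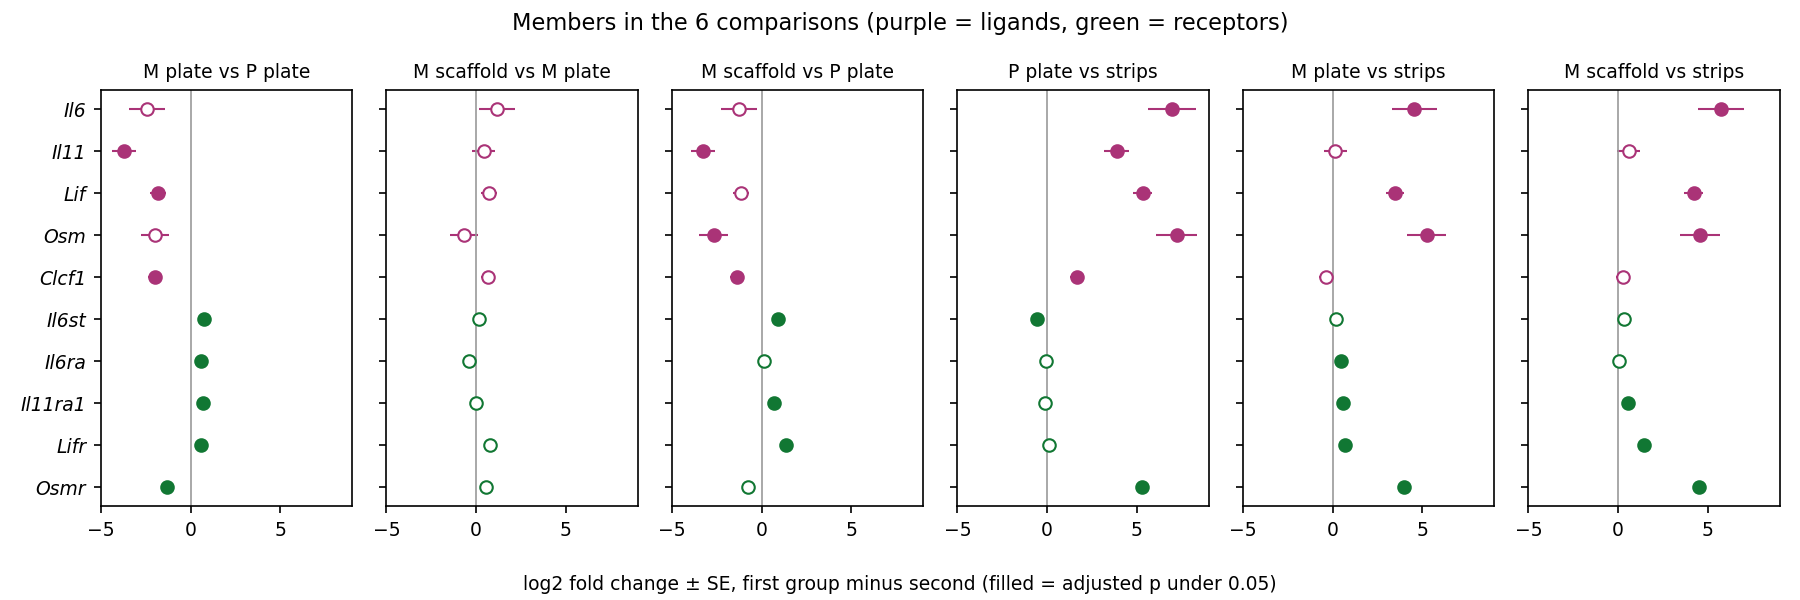
Log2 fold changes with standard errors of the 10 genes (rows, ligands in purple, receptors in green) in the 6 comparisons (panels, first group minus second); filled points have an adjusted p under 0.05 in edgeR. Ligands and Osmr lie to the right of 0 in P plate against strips, and the ligands lie to the left of 0 in M plate against P plate, where Il6 and Osm are unfilled.

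In M plate against P plate 4 of the 10, all of them receptor genes, were higher (14.3% of all genes), and 4 were lower, 3 ligand genes and Osmr (10.6%). Marker lists of other cell types were also apart in these groups. The 8 endothelial markers summed to 23.4 to 31.3 CPM in P plate, 3265 to 4209 CPM in M plate and 299 to 2341 CPM in M scaffold, and all 8 were called higher in M plate and in M scaffold than in P plate. The 6 enteric glia markers summed to 23.7 to 40.7, 137 to 178 and 282 to 628 CPM, with all 6 called higher in both, and the 6 T cell markers to 3.25 to 13.3, 39.6 to 82.7 and 15.2 to 22.7 CPM. Cd3e, Cd3d and Cd3g were at 0 in P plate, Cd3d, Cd3g and Cd8a in M plate, and Cd3d and Cd8a in M scaffold. Of the 6 T cell markers 2 passed the filter. Against P plate 1 was called higher in M plate and 0 in M scaffold. The part of these lists in the differences between cultures was not tested. In M scaffold against P plate 3 were higher (15.1%) and 3 lower (9.61%). Between M scaffold and M plate edgeR called none of the 10, with 1.53% of all genes higher and 1.64% lower. At an unadjusted p under 0.05 there were 3, Il6ra, Lifr and Osmr, and DESeq2 and limma-voom called 1, Lifr. Same-numbered libraries of M plate and M scaffold deviated together, and with the replicate number as a block within these 6 libraries edgeR still called 0 of the 10 but 787 genes higher and 931 lower over the genome, in place of 271 and 291. Leaving out any single library of the 6 brought that genome count of 562 down to between 18 and 348. The medians of the 10 genes were -1.58 in M plate against P plate, -0.94 in M scaffold against P plate and 0.50 in M scaffold against M plate. Over all genes they were -0.00436, -0.0323 and 0.00976. With P plate replicate 1 and M scaffold replicate 3 left out the first was -0.37 and the second -0.05. In the same order, the ligand genes had medians of -2.01, -1.38 and 0.63 and the receptor genes 0.56, 0.69 and 0.15 over all libraries.

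The counts between cultures rested in part on single libraries. In M plate against P plate 7 of the 10 genes were called without P plate replicate 1, 4 without M plate replicate 1 and 5 without M plate replicate 2. The count of 6 in M scaffold against P plate became 4 without M scaffold replicate 1 or 2. Against strips the counts stayed between 5 and 7 whichever library was left out. The series text calls the replicates biologically independent and the labels tie none to an animal, so p-values measure the spread between these libraries.

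Lif codes for leukemia inhibitory factor, which acts through the LIF receptor (ENSMUSG00000034394, GRCm38 chr11:4257557-4272514, plus strand). Lif stood at 43.2, 39.6 and 72.0 CPM in replicates 1, 2 and 3 of P plate. It had 11.7, 9.74 and 21.8 CPM in M plate and 10.5, 23.6 and 36.3 CPM in M scaffold. In strips it had 1.23, 1.62 and 1.05 CPM. All 3 P plate libraries lay above every other library, all 9 cultures lay above the strips, and M plate and M scaffold overlapped. Lif was 40.3-fold higher in P plate than in strips (log2 fold change 5.33 ± 0.54 (SE), n = 3 a group, edgeR adjusted p = 1.57e-05). It was 11.3-fold higher in M plate and 18.4-fold higher in M scaffold (edgeR adjusted p = 0.000255 and 0.000137). In M plate Lif fell by 1.84 ± 0.45 on the log2 scale against P plate (edgeR adjusted p = 0.0142). Leaving out P plate replicate 3 (0.0519), M plate replicate 1 (0.0625) or M plate replicate 2 (0.0600) ended that call. M scaffold against P plate had -1.13 ± 0.44 and did not pass (edgeR adjusted p = 0.087), and the call was made when M scaffold replicate 3 was left out (-1.59, 0.0327).

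Il6 codes for interleukin-6, an inducer of the acute phase response (ENSMUSG00000025746, chr5:30013114-30019981, plus strand, downstream of the AP-1 and NF-kappaB matches shown). P plate replicates 1, 2 and 3 had 93.3, 5.10 and 15.3 CPM of Il6. M plate had 4.41, 8.34 and 8.42 CPM, and M scaffold 2.46, 31.0 and 13.9 CPM. Strips had 0.274, 0.500 and 0.209 CPM, from 10, 12 and 18 counts. P plate replicate 1 was far above the rest, the cultures overlapped among themselves, and all 9 lay above the strips. Against strips Il6 rose in P plate by 6.98 ± 1.33 on the log2 scale, in M plate by 4.55 ± 1.25 and in M scaffold by 5.71 ± 1.28 (edgeR adjusted p = 0.00105, 0.0102 and 0.00400). The P plate value was 5.05 without its replicate 1 (edgeR adjusted p = 0.00122), and without M scaffold replicate 2 the M scaffold value was 4.76 (0.0121). Under limma-voom the M plate and M scaffold values did not pass (adjusted p = 0.0875 and 0.0519). Between the cultures Il6 was not called: its log2 fold change was -2.42 ± 1.02 in M plate against P plate (edgeR adjusted p = 0.11) and -0.52 without P plate replicate 1. It passed without P plate replicate 2 (-2.95, 0.0412) and by DESeq2 (-2.46, 0.0379). The sign of its difference in M scaffold against P plate changed from -1.27 to 0.66 without P plate replicate 1, and neither passed (edgeR adjusted p = 0.377 and 0.597).

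Osm codes for oncostatin M, a cytokine made largely by blood-derived cells, and lies 16.53 kb from Lif on the same strand (ENSMUSG00000058755, chr11:4236420-4241026, plus strand). In P plate Osm had 15.7, 2.46 and 1.34 CPM in replicates 1, 2 and 3. It had 1.37, 1.80 and 1.74 CPM in M plate and 0.768, 0.714 and 1.54 CPM in M scaffold. Strips held 3, 0 and 3 counts, and the count of 0 allows up to 0.125 CPM by counting error alone. P plate replicate 1 was the highest library, the cultures overlapped, and the strips lay below all of them. Osm rose against strips by 7.22 ± 1.13 on the log2 scale in P plate, 5.23 ± 1.10 in M plate and 4.56 ± 1.11 in M scaffold (edgeR adjusted p = 0.000284, 0.00251 and 0.00605). With 6 counts in all strips the size of these folds is loosely set: without strips replicate 1 they were 7.82, 5.83 and 5.17. Osm passed the filter through the cultures, so its calls as higher than strips were in part set by that. The P plate value without its replicate 1 was 5.41 (edgeR adjusted p = 4.75e-05). In M plate against P plate Osm was not called (-1.99 ± 0.79, edgeR adjusted p = 0.0921), and the value was -0.21 without P plate replicate 1. It passed without P plate replicate 3 (-2.46, 0.0350) and by DESeq2 (-2.02, 0.0464). In M scaffold against P plate Osm was called lower (-2.66 ± 0.81, edgeR adjusted p = 0.0362) although the groups overlapped. The call ended when the fit left out P plate replicate 1 (-0.85, 0.209), M scaffold replicate 1 (0.113) or M scaffold replicate 2 (0.119). It was kept in 6 of 14 alternatives, and was also lost under limma-voom (adjusted p = 0.123). In edgeR it was lost with only the 6 compared libraries (0.160) and with the replicate block in 12 or 6 libraries (0.105 and 0.385). Without both libraries that stand apart it did not pass either (0.0547).

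**Figure D2:**
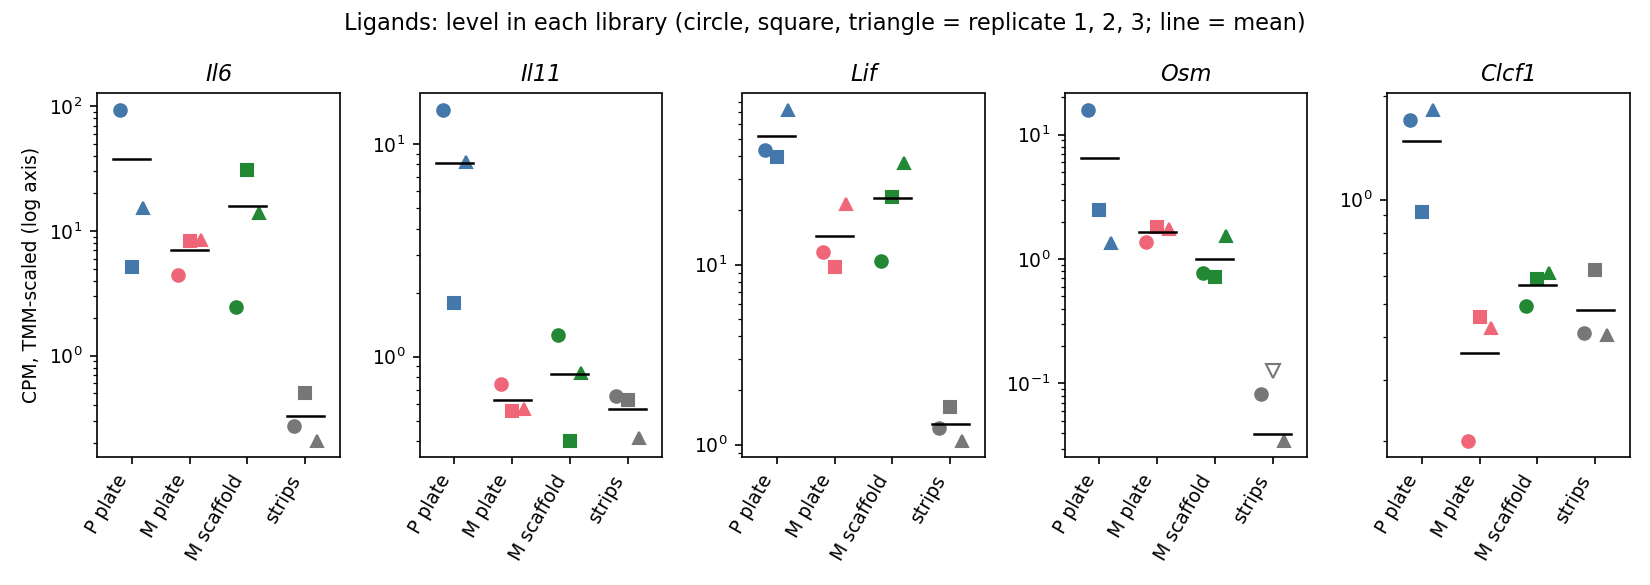
CPM of the 5 ligand genes (panels, log axis) in each of the 12 libraries by group; circle, square and triangle are replicates 1, 2 and 3, and the line is the group mean. P plate replicate 1 stands at 93.3 CPM for Il6 and 15.7 CPM for Osm, far above replicates 2 and 3, and the open triangle at 0.125 CPM marks the strips library with no Osm count.

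The library with the most Il6 and Osm also had the highest macrophage sum and, at 296 CPM, the lowest mesothelium sum. For Il6 the other libraries did not keep this order. M scaffold replicate 2, with 31.0 CPM of Il6, had the lowest macrophage sum of the cultures, 1950 CPM. P plate replicate 3 had more Il6 than replicate 2 (15.3 and 5.10 CPM) but a lower macrophage sum (2423 and 4423 CPM). All 10 macrophage markers were higher in P plate and in M plate than in strips, and 9 of 10 in M scaffold, Csf1r being the exception. Among all genes 30.5%, 26.5% and 24.5% were higher in these comparisons. The scaffold comparison with P plate called 1 of the 10, lower, which is near the share of all genes (9.61%). The part of these markers in the levels of Il6 and Osm was not tested. The 6 granulocyte markers also had their highest sum in P plate replicate 1, at 30.4 CPM, of which Csf3r made up 26.4 CPM. They summed to 9.10 and 2.26 CPM in P plate replicates 2 and 3, to 1.34 to 4.78 CPM in M plate and M scaffold and to 3.08 to 5.53 CPM in strips. S100a9 was at 0 in all cultures. Their part, too, was not tested.

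**Figure D3:**
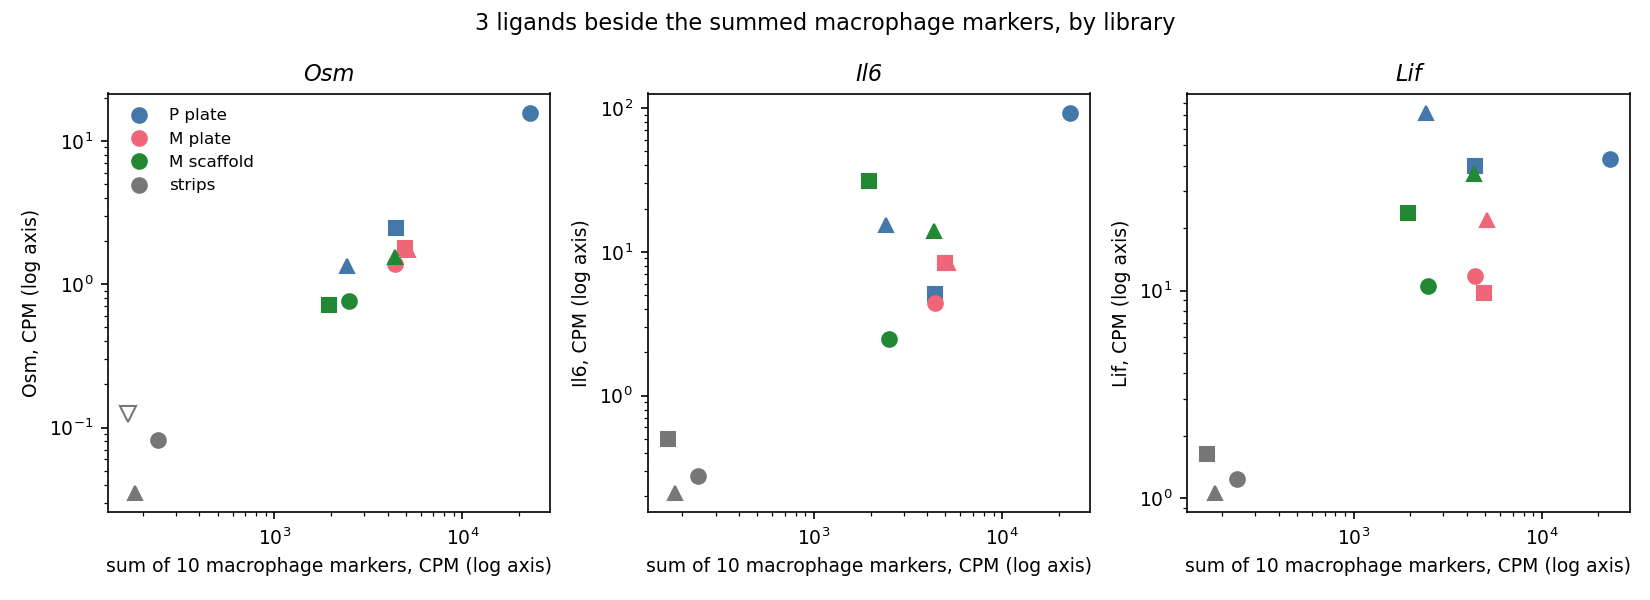
CPM of Osm, Il6 and Lif (log axis) against the summed CPM of 10 macrophage markers (log axis) in the 12 libraries, coloured by group. The library at 22930 CPM of macrophage markers, P plate replicate 1, has the most Osm and Il6 but not the most Lif, and the strips, at 167 to 241 CPM, have the least of all 3. M scaffold replicate 2, at 1950 CPM of macrophage markers, has 31.0 CPM of Il6. The open triangle stands at 0.125 CPM for the strips library with no Osm count.

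Il11 codes for interleukin-11, a cytokine linked to fibroblast activation (ENSMUSG00000004371, chr7:4772373-4782859, minus strand, with the AP-1 match shown in one of its windows). Il11 had 14.4, 1.78 and 8.19 CPM in P plate. M plate had 0.745, 0.558 and 0.566 CPM and M scaffold 1.26, 0.404 and 0.838 CPM. Strips had 0.657, 0.625 and 0.417 CPM. Every P plate library lay above all others, and M plate, M scaffold and strips overlapped. Il11 was 13.1-fold lower in M plate than in P plate (log2 fold change -3.71 ± 0.67, edgeR adjusted p = 0.00303) and 9.72-fold lower in M scaffold (-3.28 ± 0.66, 0.00465). P plate was 14.6-fold above strips (3.86 ± 0.68, edgeR adjusted p = 0.000649). Without P plate replicate 1 these values were -2.99, -2.54 and 3.12 and all passed. The M plate call against P plate was lost with the replicate block within the 6 compared libraries (edgeR adjusted p = 0.0652). The M scaffold call was lost with only the 6 compared libraries (0.0594). M plate against strips gave 0.16, with a 95% interval of -1.31 to 1.62, and M scaffold against strips 0.58, with -0.86 to 2.03, so differences of either sign are not excluded by these intervals.

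Clcf1 codes for cardiotrophin-like cytokine factor, which acts through a receptor that includes the product of Cntfr (ENSMUSG00000040663, chr19:4214238-4223490, plus strand). It had 1.70, 0.922 and 1.82 CPM in P plate, 0.20, 0.457 and 0.424 CPM in M plate, 0.491, 0.590 and 0.613 CPM in M scaffold and 0.410, 0.625 and 0.406 CPM in strips. P plate lay above the other groups without overlap. Clcf1 rose in P plate against strips by 1.65 ± 0.37 and fell by 2.01 ± 0.37 in M plate and by 1.38 ± 0.36 in M scaffold against P plate, all on the log2 scale (edgeR adjusted p = 0.00267, 0.00323 and 0.0178). The last call was lost without P plate replicate 3 or M scaffold replicate 1 or 2 (0.0639, 0.0660 and 0.0542). It was also lost with only the 6 compared libraries (0.0588) and without both libraries that stand apart (0.0646), and was kept in 8 of 14 alternatives. With the replicate block within the 6 compared libraries none of these calls was made (edgeR adjusted p = 0.0501, 0.0947 and 0.154). Of the exonic bases of Clcf1, 8.17% overlap another annotated gene on the same strand. Its counts were low, 149 over the 3 P plate libraries and 52 over those of M plate.

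Il6st codes for gp130 (ENSMUSG00000021756, chr13:112464070-112510086, plus strand) and had 539, 445 and 476 CPM in P plate. M plate had 791, 881 and 768 CPM, M scaffold 675, 1128 and 907 CPM, and strips 664, 783 and 733 CPM. P plate was the lowest group, and the other 3 groups overlapped. Il6st was 1.67-fold higher in M plate and 1.86-fold higher in M scaffold than in P plate (log2 fold change 0.74 ± 0.18 and 0.89 ± 0.18, edgeR adjusted p = 0.0141 and 0.00505), and P plate was below strips (-0.58 ± 0.18, 0.0166). The first call was lost without M plate replicate 2 (0.0571) and the last without P plate replicate 2 (0.0512) or strips replicate 2 (0.0507). The M scaffold call against P plate was lost with only the 6 compared libraries (edgeR adjusted p = 0.0695). With the replicate block within the 6 compared libraries none of these calls was made (0.0875, 0.183 and 0.0543). M plate and M scaffold were not called against strips (0.16 and 0.31), although M scaffold passed without its replicate 1 (0.49, edgeR adjusted p = 0.0285).

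Il6ra codes for the receptor that binds IL-6 itself (ENSMUSG00000027947, chr3:89864059-89913196, minus strand). Il6ra had 47.8, 43.2 and 33.6 CPM in P plate, 69.7, 53.7 and 60.3 CPM in M plate, 47.5, 52.7 and 38.3 CPM in M scaffold and 43.3, 46.8 and 41.4 CPM in strips. The 3 M plate libraries lay above all others, by 1 CPM at the closest. M plate exceeded P plate by 0.56 ± 0.16 on the log2 scale and strips by 0.48 ± 0.16 (edgeR adjusted p = 0.0275 and 0.0250). The first call ended when P plate replicate 3 (0.0928), M plate replicate 1 (0.111) or M plate replicate 3 (0.0621) was left out. The second ended without M plate replicate 1 (0.104) or 3 (0.0513) or strips replicate 1 (0.0800) or 3 (0.0969). P plate and M scaffold differed from strips by -0.08 (95% interval -0.43 to 0.27) and 0.07 (-0.28 to 0.43). Whether counting used the strand was not stated, and 2.80% of the exonic bases of Il6ra overlap the antisense gene Gm42809, which had 7, 25, 15 and 36 counts in P plate, M plate, M scaffold and strips.

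Il11ra1 codes for the receptor that binds IL-11 (ENSMUSG00000073889, chr4:41699989-41769474, plus strand). It had 44.2, 60.9 and 62.2 CPM in P plate, 100.1, 82.4 and 85.3 CPM in M plate, 75.1, 95.4 and 99.0 CPM in M scaffold and 65.6, 49.1 and 67.2 CPM in strips. M plate and M scaffold overlapped and lay above P plate and strips, which overlapped. Il11ra1 rose in M plate by 0.68 ± 0.17 against P plate and 0.56 ± 0.17 against strips, and in M scaffold by 0.69 ± 0.17 and 0.57 ± 0.17, on the log2 scale (edgeR adjusted p = 0.0175, 0.0190, 0.0156 and 0.0189). The M plate calls were lost without M plate replicate 1 (0.0760 and 0.0793), and that against strips also without strips replicate 2 (0.0910). The M scaffold call against strips was lost without M scaffold replicate 2 or 3 or strips replicate 2 (0.0630, 0.0574 and 0.0808). That against P plate was lost with only the 6 compared libraries (0.0569) and without both libraries that stand apart (0.0576). With the replicate block within the 6 libraries neither the M scaffold (0.0507) nor the M plate (0.121) call against P plate was made. Of its 50-base exonic stretches 46.3% also occur in other genes, with the near-identical copies Il11ra2 and Gm13305 among them. Reads from these cannot be placed with certainty. The deposited table had 0 to 1 count for Il11ra2 and 0 to 4 for Gm13305 over the libraries of a group. 

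Lifr codes for the signalling receptor of LIF (ENSMUSG00000054263, chr15:7090614-7197489, plus strand). It had 20.3, 23.4 and 19.3 CPM in P plate and 19.3, 18.7 and 20.1 CPM in strips. M plate had 41.2, 26.9 and 24.9 CPM, and M scaffold 45.8, 60.6 and 52.9 CPM. M scaffold was the highest group without overlap, M plate lay between, and P plate and strips overlapped. Lifr was 2.53-fold higher in M scaffold than in P plate and 2.74-fold higher than in strips (log2 fold change 1.34 ± 0.19 and 1.45 ± 0.19, edgeR adjusted p = 0.000511 and 0.000189). M plate exceeded strips by 0.67 ± 0.18 (edgeR adjusted p = 0.0104). M plate exceeded P plate by 0.56 ± 0.18 with an edgeR adjusted p of 0.0488, which rose above 0.05 when any P plate library (0.0883, 0.0517 and 0.141 for replicates 1, 2 and 3) or M plate replicate 1 (0.193) or 2 (0.0623) was left out. It was also above 0.05 with RLE size factors (0.0514), no filter on low counts (0.0765), limma-voom (0.0775) or only the 6 compared libraries (0.136), and the call was kept in 2 of 14 alternatives. Between M scaffold and M plate the log2 fold change was 0.78 ± 0.18 (95% interval 0.37 to 1.19) and just missed the threshold in edgeR (adjusted p = 0.0505). DESeq2 (0.80, adjusted p = 0.00389), limma-voom (0.82, 0.0283) and edgeR without M plate replicate 1 (1.05, 0.0254) called it higher, and edgeR with the replicate block did not (0.82, 0.0847).

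Osmr codes for the signalling receptor of oncostatin M and lies 215.644 kb from Lifr, on the opposite strand (ENSMUSG00000022146, chr15:6813577-6874969, minus strand). It had 479, 241 and 336 CPM in P plate. M plate had 132, 158 and 132 CPM and M scaffold 148, 246 and 234 CPM, while strips had 10.3, 9.08 and 8.0 CPM. P plate was above M plate without overlap, M scaffold overlapped both, and every culture was above every strips library. Osmr rose against strips by 5.27 ± 0.30 on the log2 scale in P plate, 3.95 ± 0.28 in M plate and 4.52 ± 0.29 in M scaffold, or 38.6-fold, 15.4-fold and 22.9-fold (edgeR adjusted p = 6.72e-07, 7.23e-06 and 8.16e-06). In M plate it was 2.5-fold lower than in P plate (-1.32 ± 0.26, edgeR adjusted p = 0.00418). M scaffold against P plate had -0.75 ± 0.25 and did not pass (edgeR adjusted p = 0.0525), whereas leaving out P plate replicate 2 gave a call (-0.96, 0.0155) and by DESeq2 (-0.74, 0.0408). M scaffold against M plate had 0.57 ± 0.25 (95% interval 0.01 to 1.13, edgeR adjusted p = 0.224).

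**Figure D4:**
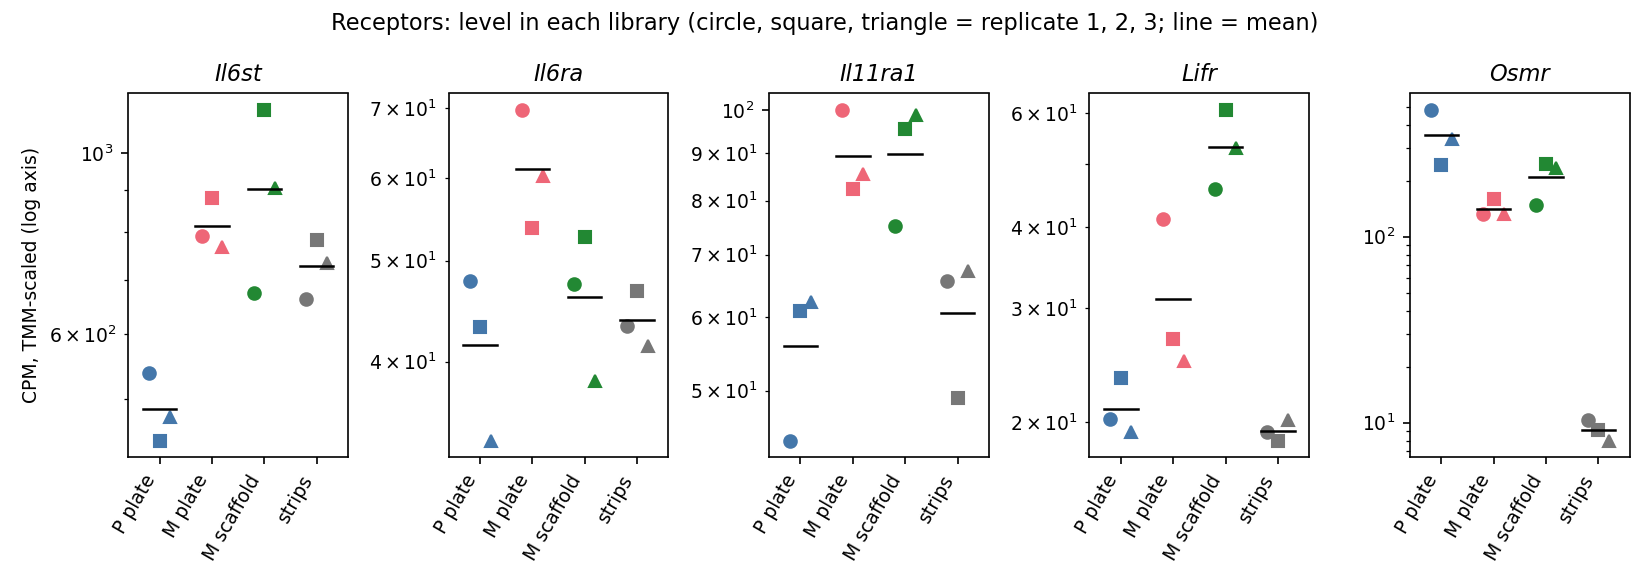
CPM of the 5 receptor genes (panels, log axes of different range) in each of the 12 libraries by group; circle, square and triangle are replicates 1, 2 and 3, and the line is the group mean. Osmr spans 8.0 to 479 CPM with the strips at the bottom, whereas Il6ra stays within 33.6 to 69.7 CPM.

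The scaffold and the plate, with the same medium, were compared without a call. The 95% intervals, from the fit without the replicate block, show what sizes the 3 libraries a group leave possible in that fit. The widest was that of Il6, with a log2 fold change of 1.16 ± 0.99 and an interval of -1.03 to 3.34. Il11 had 0.43 ± 0.64 (-1.0 to 1.85), Lif 0.71 ± 0.44 (-0.26 to 1.68) and Osm -0.67 ± 0.78 (-2.41 to 1.06). Clcf1 had 0.63 ± 0.37 (-0.19 to 1.46), and all 3 scaffold libraries lay above all 3 plate libraries. The narrowest were those of Il6ra at -0.41 ± 0.16 (-0.76 to -0.06), with every scaffold library below every plate library, Il11ra1 at 0.01 ± 0.17 (-0.37 to 0.39) and Il6st at 0.15 ± 0.18 (-0.25 to 0.55). The intervals of Il6ra, Lifr and Osmr leave out 0 before adjustment over all genes. They do not use the pairing of same-numbered libraries. With the replicate block within the 6 libraries Il6 had 0.69, Osm -0.73 and Osmr 0.55 (edgeR adjusted p = 0.425, 0.190 and 0.0849).

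Per length, in TMM-scaled FPKM over the union of exons, Il6st was the most abundant of the 10 genes in every group, at 43.8 ± 4.29 (SD, n = 3) in P plate, 73.3 ± 5.38 in M plate, 81.4 ± 20.4 in M scaffold and 65.5 ± 5.40 in strips. In strips the receptor genes were the 5 highest: Il11ra1 at 13.6, Il6ra at 5.07, Lifr at 1.80 and Osmr at 0.754 FPKM followed Il6st, with no overlap between neighbours. The ligands came below, from Lif at 0.30 to Osm at 0.0171 FPKM, and Lif, Il11, Il6 and Clcf1 overlapped with their neighbours. In P plate the order differed: Osmr came next after Il6st at 29.1 ± 9.87 FPKM, and it overlapped with Il6 (15.6 ± 19.9), which overlapped with Il11ra1 (12.5), and that with Lif (11.9). In M plate Il11ra1 (19.96 FPKM), Osmr (11.6) and Il6ra (7.09) followed Il6st without overlap, and Lif (3.31), Il6 (2.91) and Lifr (2.88) overlapped. In M scaffold neighbours overlapped from Il11ra1 (20.1 FPKM) and Osmr (17.3) through Il6 (6.50) and Lif (5.40) to Il6ra (5.34) and Lifr (4.93). Clcf1 was the lowest of the 10 in every culture, at 0.0947 to 0.388 FPKM.

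The order of Osmr and Lifr, the receptors for the neighbouring ligands Osm and Lif, was not the same in cultures and tissue. The ratio of Osmr to Lifr in FPKM was 15.2 ± 5.92 in P plate (9.18 to 21). It was 4.27 ± 1.26 in M plate, from 2.85 to 5.24, and 3.47 ± 0.548 in M scaffold, from 2.87 to 3.94. In strips it was 0.420 ± 0.0623 (0.353 to 0.476). Lifr was thus the more abundant of the pair per length in all 3 strips libraries and Osmr in all 9 cultures.

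Other ligands and receptors of the family were described from a list of 10 genes, of which 6 passed the filter. Ebi3, a subunit of interleukin-27, rose against strips by 3.19 ± 0.78 in P plate, 3.92 ± 0.80 in M plate and 2.63 ± 0.77 in M scaffold on the log2 scale (edgeR adjusted p = 0.00463, 0.00203 and 0.015). Il31ra, a receptor subunit for interleukin-31, fell by 3.98, 5.11 and 4.52, from 2.19 to 2.73 CPM in the strips to under 0.22 CPM in the cultures. It had 371 counts in strips and 15, 9 and 16 in P plate, M plate and M scaffold. Il31ra thus passed the filter through the strips, and its calls as lower, counted below, were in part set by that. Cntfr fell against strips in P plate by 1.82 ± 0.58 and in M plate by 1.5 ± 0.58 (edgeR adjusted p = 0.0193 and 0.0475) and was higher in M scaffold than in P plate (1.93 ± 0.59, 0.0354), where the list's count of 2 became 1 without P plate replicate 2 or M scaffold replicate 2 or 3. Il27ra, a receptor for interleukin-27, was higher in M plate and M scaffold than in P plate by 2.81 ± 0.49 and 2.95 ± 0.49. Against P plate 1 of the 6 genes was higher in M plate and 2 in M scaffold, beside 14.3% and 15.1% of all genes. Of the 6 genes, 2 were higher and 2 lower in P plate against strips, 3 and 2 in M plate, and 3 and 1 in M scaffold. With 30.5% of all genes higher and 32.7% lower in P plate, 26.5% and 28.4% in M plate, and 24.5% and 27.6% in M scaffold, the P plate counts are those of the background.

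Of 11 JAK kinases, STAT factors and adaptors, 8 were higher and 1 lower in P plate against strips (30.5% and 32.7% of all genes), 6 higher in M plate (26.5%) and 7 higher in M scaffold (24.5%). Stat3, the main STAT of the family, rose by 1.44 ± 0.13, 1.38 ± 0.13 and 1.40 ± 0.13 on the log2 scale, from 157, 178 and 168 CPM in strips to 393 to 492 CPM in the cultures, and Jak1 by 0.67, 0.80 and 0.99. The adaptor gene Gab1 was the 1 that fell in P plate, by 1.02 ± 0.17. Between cultures Gab1 and Stat5b were higher in M plate than in P plate (0.74 ± 0.17 and 0.47 ± 0.10, edgeR adjusted p = 0.0105 and 0.00745), and Gab1 in M scaffold (0.90 ± 0.17, 0.00355). Counts of 2 and 1 of the 11 genes are near the shares of all genes called higher, 14.3% and 15.1%. Leaving out P plate replicate 1 made these counts 4 and 3, and without M scaffold replicate 1 the second was 2. Of the pair of sheddases that release the IL-6 receptor from cells, Adam17 rose in all 3 cultures by 1.74, 1.84 and 1.86, and Adam10 in M plate by 0.70 ± 0.17.

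Among 9 feedback inhibitors Socs3 had 25.6, 21.5 and 21.4 CPM in strips, 102, 87.3 and 98.6 CPM in P plate, 117, 138 and 146 CPM in M plate and 87.1, 221 and 174 CPM in M scaffold. All cultures lay above the strips, and Socs3 rose by 2.07 ± 0.27, 2.55 ± 0.28 and 2.82 ± 0.28 on the log2 scale (edgeR adjusted p = 9.57e-05, 5.46e-05 and 4.89e-05). Socs2, a brake on growth hormone signalling, moved the other way and fell by 2.26 ± 0.22, 2.55 ± 0.22 and 2.04 ± 0.22. Cish, a STAT5-induced inhibitor, had 13.8, 28.5 and 19.2 CPM in P plate and 26.3, 31.6 and 25.0 CPM in strips, groups that overlapped, but 5.10, 4.44 and 5.23 CPM in M plate and 3.96, 4.04 and 3.56 CPM in M scaffold. It fell by 2.06 ± 0.23 in M plate and by 2.41 ± 0.24 in M scaffold against P plate (edgeR adjusted p = 0.000189 and 5.78e-05). Against strips 5 of the 9 were higher and 2 lower in P plate, 5 and 3 in M plate, and 6 and 3 in M scaffold. Among all genes the shares were 30.5% and 32.7%, 26.5% and 28.4%, and 24.5% and 27.6%, so the lower counts are near the background.

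A list of 22 genes that IL-6 family signals are known to induce, which other signals induce too, had 21 members that passed the filter. Socs3 and Stat3 stand in this list as well as in those above. In P plate 19 of the 21 were above strips, Fos (1.36 ± 0.73) and Lrg1 (2.81 ± 1.31) being the exceptions, and in M plate and M scaffold 20, Pim1 being the exception (-0.32 ± 0.27 and 0.31 ± 0.27). No member was called lower there, and the shares of all genes called higher were 30.5%, 26.5% and 24.5%. Their median log2 fold changes were 3.27, 3.8 and 4.10, beside -0.03, -0.01 and -0.02 over all genes. The acute phase gene Saa3 had 5.60 to 6.71 CPM in strips, between 1424 and 6221 CPM in P plate, between 6230 and 12835 CPM in M plate and between 6590.3 and 13211 CPM in M scaffold, and rose with log2 fold changes of 9.14 ± 0.70, 10.61 ± 0.74 and 10.59 ± 0.74. Hp, the gene of haptoglobin, rose by 8.55 ± 0.71, 7.97 ± 0.70 and 9.95 ± 0.75. In P plate against strips the count was also 19 without P plate replicate 1.

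**Figure D5:**
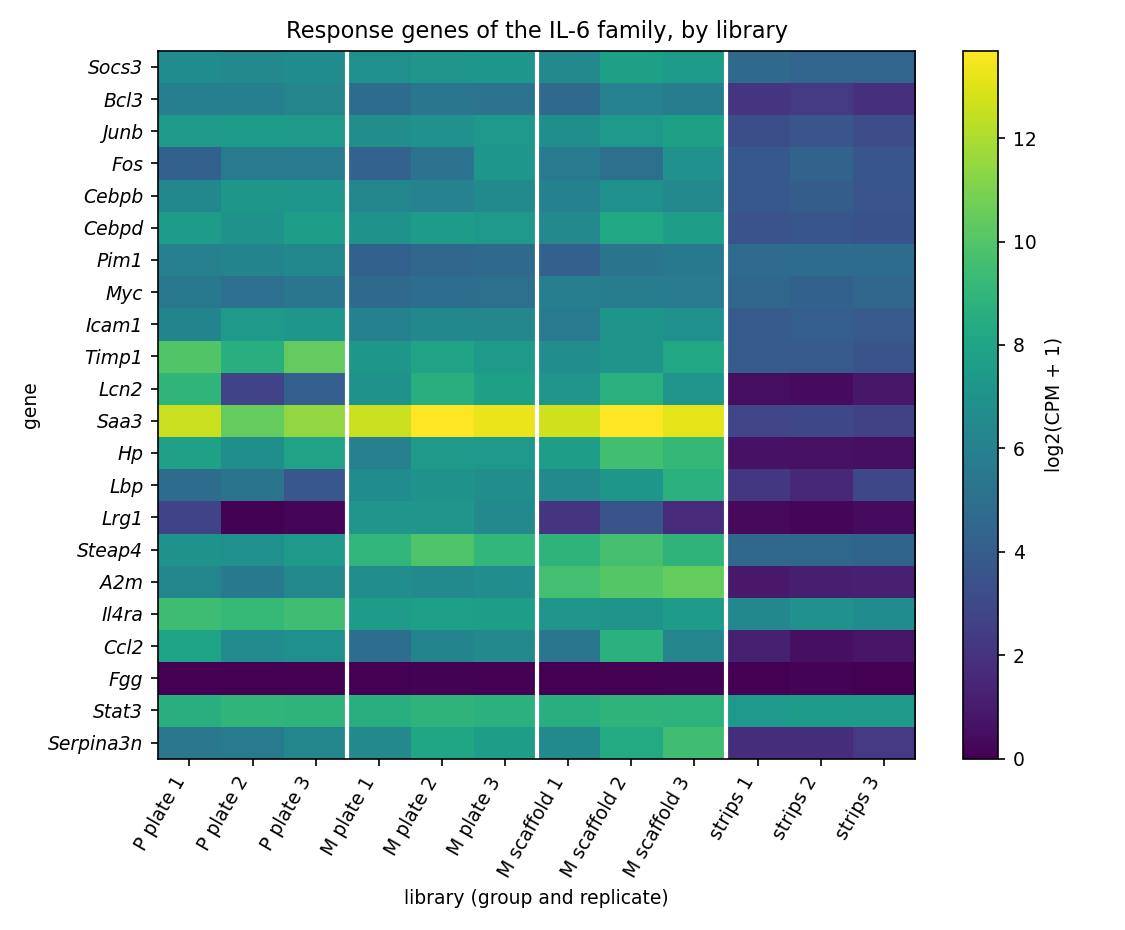
Level, as log2(CPM + 1), of the 22 response genes (rows) in the 12 libraries (columns, white lines between groups). The strips columns are darkest for most genes, A2m is brightest in M scaffold, Lrg1 in M plate, and Fgg, which did not pass the filter, is dark throughout.

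Between cultures the response genes did not move as a block. In M plate against P plate 3 of 21 were higher and 3 lower: Steap4 (2.31 ± 0.29), Lbp (2.10 ± 0.62) and Lrg1 (5.93 ± 1.25) rose, and Timp1, the protease inhibitor, fell by 2.34 ± 0.48, Il4ra by 1.76 ± 0.17 and Pim1 by 1.71 ± 0.28. Against P plate, 4 were higher and 3 lower in M scaffold. These counts are near the shares of all genes, 14.3% higher and 10.6% lower in M plate and 15.1% and 9.61% in M scaffold. Leaving out P plate replicate 1 made these counts 4 and 5, and 8 and 4. On the scaffold against M plate A2m, a broad protease inhibitor, rose by 3.45 ± 0.28 (edgeR adjusted p = 0.00259), from 105, 89.6 and 103 CPM to 760.3, 1100 and 1401 CPM, and Myc by 0.84 ± 0.15 (0.0255). The count of 2 was 1 without M plate replicate 1, 2 or 3. With the replicate block within the 6 libraries 3 were higher and 1 lower, Hp and Lrg1 joining them. In that comparison edgeR called 0 of the 6 other ligands and receptors, 0 of the 11 kinases and other signal carriers, 0 of the 9 inhibitors and 0 of the 2 sheddases, with 1, 3, 3 and 1 at an unadjusted p under 0.05. DESeq2 and limma-voom also called 0 in each, and with the block Ebi3 and Cntfr were called. Without both libraries that stand apart Cntfr and Socs2 were called higher and Tyk2 lower. The fit of only the 6 compared libraries called 1 of the other ligands and receptors higher.

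For each of the 10 genes the 3 genes with the nearest pattern over the 12 libraries were found by the root mean square difference in centred log2 CPM. The nearest matches were of Il6ra, Erap1 (0.133) and Stat5b (0.147), of Il6st, Cyth3 (0.169), and of Il11ra1, Cdc42ep5 (0.171). Osm was nearest to Ncf1 (0.195), Msr1 (0.242) and Fcgr4 (0.32). Lifr was nearest to Usp27x (0.278), Osmr to Cdkn2a (0.351) and Clcf1 to Arntl2 (0.365). Lif was nearest to Gpr39 (0.407) and Maff (0.485), Il11 to Star (0.565) and Il6 to Ccl7 (0.696). Cdkn2a was among the nearest 3 of both Osmr and Lif. A gene that varies little finds near matches easily, so the differences are not comparable between the 10 genes.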

How the data were processed

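The deposited values were whole-number read counts per Ensembl gene, 1 column per library, made by the authors. The submitters' processing notes name STAR 2.6.0, GRCm38 and mm10. No counting program, annotation or strand setting is given in these sources. Nor is it stated how the 2 technical replicates per sample of the series text were joined. Per the labels' protocols, libraries were made from total RNA with TruSeq kits. The table closes with 5 summary rows, which entered neither library sizes nor tests. Of all entries 38.7% to 46.7% were alignments that were not unique, 2.57% to 4.42% lay in no feature and 1.83% to 2.24% were ambiguous, so genes with near-identical copies may be undercounted. The table has 0 columns of no sample.

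Identifiers were matched to GENCODE M21 (GRCm38, 52403 of 52550 genes). In R 4.3.3, edgeR 4.0.16 was used: filterByExpr left 17700 genes, TMM factors ranged from 0.893 to 1.15, and a quasi-likelihood model with group as its only term was fitted to all 12 libraries (8 residual degrees of freedom), pooling the spread of 4 groups. The F test of 6 comparisons was two-sided and Benjamini-Hochberg adjusted over all 17700 genes. Standard errors come from the F statistic. CPM values are TMM-scaled, and FPKM divides them by the length of the union of exons. The fit was tested on simulated data. DESeq2 1.42.0, limma-voom (limma 3.58.1), RLE size factors, no filter on low counts, only the 6 compared libraries, a replicate block, Il11ra1 summed with Il11ra2 and leaving out libraries were tried as alternatives. Counts of replicates were further apart than sampling error allows (chi-square statistic per gene 41.0 to 449.9), and each column counted as 1 sample.

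The correlation of deviations from the group means was 0.196 to 0.304 between same-numbered libraries of M plate and M scaffold and -0.228 to -0.0597 between other numbers, so the numbers were taken to pair these groups. This comes from the data, as the labels do not state it. In no other pair of groups were all 3 correlations over 0.1. The 10 genes, the pathway and marker lists and the tests were chosen with earlier results of these data known. All 10 genes were reported, with members of the pathway lists and, for each gene, its 3 nearest in pattern, predicted and mitochondrial genes left out. A gene of the pathway lists is counted but not reported here by name. The 95% intervals of fold changes come from the same fit and include the spread between libraries, while the floor of 3 counts covers counting error only.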

Additional observations from a re-analysis of the deposited data

How the results depend on the processing

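Of the 60 values of the 10 genes in the 6 comparisons, 34 were called, and 14 of these were called in every alternative run. Among those not called, 14 of 26 stayed so with the same sign. Below, the causes of the changes were not tested.

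With single libraries left out, the count of the 10 genes called ranged from 4 to 8 in M plate against P plate, 0 to 1 in M scaffold against M plate, 4 to 7 in M scaffold against P plate, 6 to 7 in P plate against strips and 5 to 7 in M plate and in M scaffold against strips. All genes called ranged from 2630 to 5188, 18 to 348, 3232 to 4818, 10063 to 11320, 8278 to 8706 and 7706 to 8659, in the same order.

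In M plate against P plate the fit of the 6 compared libraries called 2846 genes in place of 4400. With the replicate block within these 6 it called 1300, and 1 of the 10 genes, Lif, in place of 8. Deviations of same-numbered P plate and M plate libraries correlated at -0.0365 to 0.0857, which does not settle whether they are paired. In M scaffold against P plate the 6 libraries gave 1791 genes and 1 of the 10, and the replicate block 915 and 2, in place of 4375 and 6. In M scaffold against M plate all genes called were 562. They were 2025 by DESeq2, 1004 by limma-voom, 1068 in the 6 libraries, 1355 without both libraries that stand apart, 1718 with the replicate block in 6 libraries and 391 with it in 12, and RLE size factors, DESeq2 and limma-voom called 1 of the 10, Lifr. The block changed no call of the 10 genes there.

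Signs changed only for values that were not called. Il11ra1 in M scaffold against M plate was -0.00511 by limma-voom and -0.0365 without both libraries that stand apart, and Il6 in M scaffold against P plate was 0.75 without them. With 1 library out, Il6st ranged from -0.0187 to 0.33 in M scaffold against M plate, Il11ra1 ranged from -0.0638 to 0.13 in M scaffold against M plate, Il6 ranged from -2.16 to 0.66 in M scaffold against P plate, Il6ra ranged from -0.23 to 0.0203 in P plate against strips, Il11 ranged from -0.0747 to 0.26 in M plate against strips and Il6ra ranged from -0.0416 to 0.20 in M scaffold against strips.

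Depth limits Osm, Il6 and Clcf1, with 6, 40 and 65 counts in all strips. Leaving out P plate replicate 1 and M scaffold replicate 3 together was not run for M plate against strips, which holds neither.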
